A study of Arabidopsis thaliana with 6 samples.

Results

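The 7 cytokinin oxidase/dehydrogenase genes of *Arabidopsis thaliana*, *CKX1* to *CKX7*, were examined in inflorescences of a quadruple mutant and of the wild type. They were chosen as a complete gene family, by gene identifier, and all 7 are among the 21799 genes with values in the expression table. The mutant genotype was *bee1 bee3 stk ces-4*, and Col-0 plants served as the wild type, with 3 biological replicates each and no treatment. The mutant carries mutations in *STK* (*SEEDSTICK*), which encodes a MADS-domain transcription factor, and in *CES* (*CESTA*), *BEE1* and *BEE3*, which encode related basic helix-loop-helix (bHLH) transcription factors. Plants of both genotypes were grown at 22 °C in long days after 2 days of stratification at 4 °C. Each replicate was 1 g of inflorescence tissue, pooled from several plants and taken up to stage 12 of pistil development, before fertilization. Polyadenylated RNA was sequenced from whole inflorescences, so that ovules, the transmitting tract and all other floral tissues contribute to each value. The 4 mutations are always present together, and their separate contributions cannot be told apart.

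Cytokinins are adenine-derived hormones that promote cell division in meristems and in young floral organs. Cytokinin oxidases are flavoenzymes that cleave the side chain from the adenine ring and inactivate the hormone irreversibly, so that they oppose the enzymes that make and activate it. The family members differ in where the protein goes: CKX7 lacks a signal peptide and is cytosolic, CKX1 and CKX3 have been localized to the endomembrane system or the vacuole, and CKX2 is secreted, as CKX4, CKX5 and CKX6 are thought to be. In the inflorescence, *CKX3* and *CKX5* are known for limiting the size of the meristem and the number of flowers. *CKX7* has been reported as a target of STK.

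The sequences upstream of *CKX7*, *CKX5* and *CKX3* are shown because they hold matches to the kinds of DNA element that the families of the mutated factors bind. MADS-domain proteins bind CArG boxes, and bHLH proteins bind E-boxes (CANNTG), of which the G-box (CACGTG) is a special case, so that every G-box counted here is also an E-box. The sequences are from the TAIR10.1 RefSeq assembly and run 5′ to 3′ toward the gene on its own strand. Capitals mark an E-box and then a CArG box of the MEF2 type (C, 8 A or T bases, G) for *CKX7*, and G-boxes for *CKX5* and *CKX3*. *CKX7* is given from 300 bases to 1 base before its annotated start (chr5:7226306-7226605, plus strand), *CKX5* from 779 to 633 bases before its start (chr1:28319008-28319154, minus strand) and *CKX3* from 396 to 371 bases before its start (chr5:23048663-23048688, minus strand).
CKX7: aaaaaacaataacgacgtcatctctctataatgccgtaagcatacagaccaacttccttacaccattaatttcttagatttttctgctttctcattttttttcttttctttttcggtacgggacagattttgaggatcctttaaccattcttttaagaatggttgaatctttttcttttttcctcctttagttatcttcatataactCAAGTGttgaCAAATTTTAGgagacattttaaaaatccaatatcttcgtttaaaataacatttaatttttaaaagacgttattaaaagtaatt
CKX5: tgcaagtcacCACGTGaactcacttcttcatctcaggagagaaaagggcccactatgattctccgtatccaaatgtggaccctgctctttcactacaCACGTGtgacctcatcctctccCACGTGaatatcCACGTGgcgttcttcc
CKX3: attagattctCACGTGactttgatca

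In the 300 bases before *CKX7*, the E-box and the MEF2-type CArG box lie close together, and their bases nearest the gene are 88 and 74 bases before its start. Both motifs, at any spacing, are held by 17.4% of 27443 promoters of the same length, an E-box by 61.9% and a MEF2-type CArG box by 29.4%. The share of promoters with the motifs this close together was not counted. *CKX5* has 4 G-boxes in the 1000 bases before its start, 764, 677, 655 and 643 bases away. At least 4 G-boxes were found in 33 of the 27443 windows of 1000 bases (0.12%), and at least 1 in 14.8%. The threshold of 4 is the count of *CKX5* itself, and several genes and motifs were searched. The 0.12% is therefore a description and not a measure of how unusual this find is. *CKX3* has 1 G-box, 381 bases from its start, and the other 5 members have none in this window. The strict CArG box (CC, 6 A or T bases, GG) matched none of the 7 windows of 1000 bases, and it matched 7.2% of all such windows. MEF2-type CArG boxes lie within 300 bases of *CKX1*, *CKX2*, *CKX3*, *CKX5* and *CKX7*, and E-boxes within 300 bases of *CKX3*, *CKX4*, *CKX6* and *CKX7*. *CKX3* thus holds both motifs as *CKX7* does, with E-boxes 233 and 46 bases and a MEF2-type CArG box 144 bases before its start. An intermediate CArG box (a run of 7 A or T bases between CC and G or between C and GG) was also searched. It lies 135 bases before *CKX2* and 556 bases before *CKX4*, and 37.6% of all windows of 1000 bases hold it. Both strands were searched, a match is only a run of letters, and binding was not measured in these samples.

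**Figure D1:**
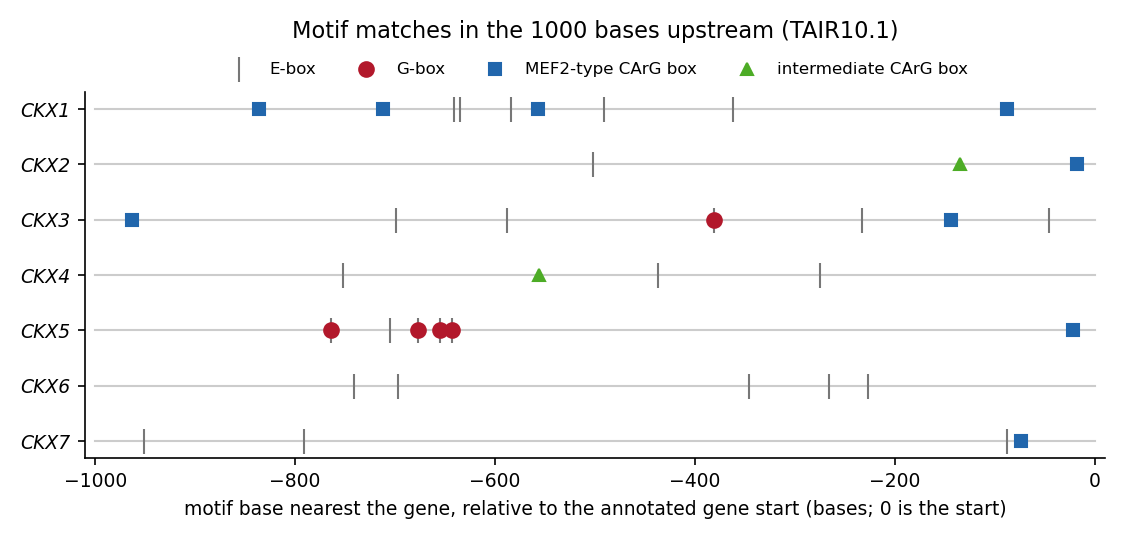
Motif matches in the 1000 bases before each cytokinin oxidase gene, plotted by the distance in bases of the motif's nearest base from the annotated start at 0. The motifs are the E-box, the G-box, and the MEF2-type and intermediate CArG boxes. Each G-box also carries an E-box mark, and the 4 G-boxes of *CKX5*, between 764 and 643 bases from the start, stand out from the single one of *CKX3* and from the 5 genes with none.

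The members are spread over all 5 chromosomes, and all but *CKX7*, which has 4 exons, have 5 exons in their longest coding model. On TAIR10.1 coordinates *CKX1* (AT2G41510) lies at chr2:17314412-17317354, *CKX2* (AT2G19500) at chr2:8444204-8447355, *CKX3* (AT5G56970) at chr5:23044839-23048292 and *CKX4* (AT4G29740) at chr4:14566183-14569380. *CKX5* (AT1G75450) lies at chr1:28314458-28318375, *CKX6* (AT3G63440) at chr3:23424157-23426536 and *CKX7* (AT5G21482) at chr5:7226606-7230304. *CKX5* is 553 kb from the mutated gene *BEE3*. *CKX4* is 8325 kb from *STK*, and the other members share no chromosome with a mutated gene. The encoded proteins have 501 to 637 residues, and their pairwise identity runs between 41.4% for CKX4 and CKX7 and 69.5% for CKX2 and CKX4. No pair of coding sequences shares a run of 50 identical bases, and even *CKX2* and *CKX4*, the most alike, are 76.4% identical.

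The 6 libraries held 17.4 to 21.2 M reads on the listed genes in the mutant and 15.9 to 21.1 M in the wild type, as derived from the even spacing of low values. The authors list their libraries in pairs of reads, so a read here stands for a pair. Levels are given as CPM, the read count per 1e6 reads of an effective library size, and 3 reads correspond to 0.138 to 0.173 CPM in the mutant and 0.138 to 0.185 CPM in the wild type, a limit that covers counting error only. The mutated genes matched the labels. *STK* was at 10.4, 10.5 and 9.72 CPM in the mutant and 50.3, 54.3 and 49.7 CPM in the wild type, and limma called all 4 mutated genes lower, with log2 fold changes of -2.28 for *STK*, -4.03 for *CES*, -1.81 for *BEE1* and -2.90 for *BEE3*, of which *BEE3* passed the filter only through the wild type and had no read in 1 mutant library. The 7 floral marker genes were all present, and their summed level was 779 to 841 CPM in the mutant and 698 to 789 CPM in the wild type. The root markers were low, at a sum of 15.6 to 19.6 CPM in the mutant and 12.4 to 17.5 CPM in the wild type, with *EXPA7* not listed. Sums overlapped between genotypes for all 5 lists (inflorescence, tapetum, mature pollen, ovule and root). Limma called 0 of the 23 markers tested (0.695% of all tested genes). An unadjusted p under 0.05 was found for *AP1* and *WUS*, both with higher means in the mutant (9.31% of all tested genes). The mutant values of *AP1* and *SEP3* lay above all wild-type values (6.92% of all tested genes), and those of *INO* below them (7.41%). These counts were near the shares over all genes. *INO* and *WUS*, both of the ovule list, had mean differences of opposite sign, and the values of *WUS* overlapped between genotypes. The part of the markers in the values below was not tested. On the first principal component the mutant libraries lay between -31.0 and -8.34 and the wild-type libraries at 10.14, 38.6 and 9.11, so that wild-type replicate 2 stood farthest out. Differences are therefore also given without wild-type replicate 2. Its value was the highest or the lowest of the 3 wild-type values for 6 of the 7 members, but 2 of any 3 values take these places.

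None of the cytokinin oxidase genes was called different between the genotypes. Of 21287 genes tested with limma on log2(CPM + 0.5), 148 were called at an adjusted p under 0.05 (0.695%), and 0 of the 6 tested members were among them. At an unadjusted p under 0.05 there were 3 of the 6 members, *CKX1* with a higher mean in the mutant and *CKX3* and *CKX6* with lower ones, against 9.31% of all tested genes. This count was 1, *CKX3*, without wild-type replicate 2, mutant replicate 2 or mutant replicate 3, and 2 when any 1 of the other 3 libraries was left out. The 3 mutant values all lay above the wild-type values for 1 member, *CKX1* (6.92% of all tested genes), and all below them for 1 member, *CKX3* (7.41% of all tested genes). The median log2 fold change was 0.04 over the 6 members and 0.01 over all tested genes. *CKX4* did not pass the filter, which asked for more than 0.5 CPM in at least 3 samples, and was not tested. Since the RNA came from whole inflorescences, fewer cells of a type and less RNA per cell cannot be told apart in any of these values.

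**Figure D2:**
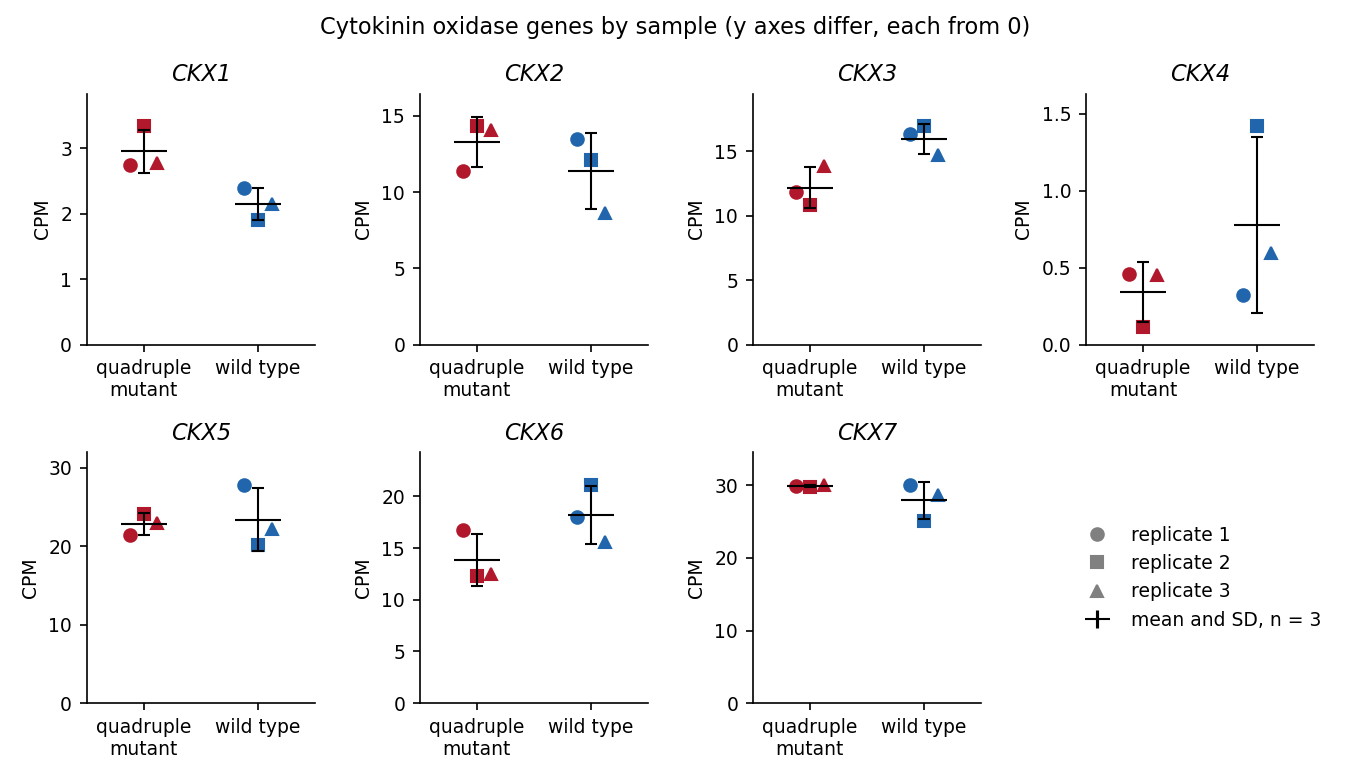
CPM of each cytokinin oxidase gene in every library, quadruple mutant on the left and wild type on the right, with the mean and SD (n = 3) in black. Each y axis starts at 0 and has its own scale. The mutant values lie above the wild-type values for *CKX1* and below them for *CKX3*, and the genotypes overlap for the other 5 genes.

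*CKX7*, the cytosolic member, was at 29.8, 29.8 and 30.1 CPM in the mutant and 30.0, 25.1 and 28.7 CPM in the wild type. The mutant values lay within the wild-type range or just above it, and wild-type replicate 2 was the lowest of the 6. The means were 29.9 ± 0.143 CPM in the mutant and 27.9 ± 2.54 CPM in the wild type (SD, n = 3 each). The log2 fold change was 0.10 (SE 0.09, 95% interval -0.11 to 0.31, limma adjusted p = 0.826), which corresponds to a ratio of 1.07 with an interval of 0.926 to 1.24. *CKX7*, the member reported as an STK target, was thus not detectably changed in whole inflorescences with a much reduced level of *STK* transcript. The lower end of its interval is close to the wild-type level. These samples were taken before fertilization and mix all floral tissues. Regulation of *CKX7* by STK in particular tissues or after fertilization was not tested. Without wild-type replicate 2 the log2 fold change was 0.03. The coefficient of variation among the mutant replicates was 0.478%, below the 4.23% that counting reads at this level would give on its own, so this narrow spread understates the error and the moderated SE of limma is the better guide.

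The tested genes whose centred profile over the 6 samples was most like that of *CKX7* were AT3G16940, *NPQ7* (AT1G65420) and *UMAMIT41* (AT3G28050), with root mean square differences of 0.01, 0.02 and 0.02 on the log2 scale. They share its low value in wild-type replicate 2. AT3G16940 was at 66.0, 65.2 and 66.4 CPM in the mutant and 65.5, 56.2 and 62.9 CPM in the wild type. With 6 samples and 21287 genes to choose from, likeness of this kind is a description.

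*CKX1* and *CKX3*, which encode the enzymes placed in the endomembrane system or the vacuole, differed between the genotypes in opposite directions, and neither difference passed the test. *CKX1* was at 2.75, 3.34 and 2.77 CPM in the mutant and 2.39, 1.91 and 2.15 CPM in the wild type. The groups did not overlap, and the lowest mutant value was 0.358 CPM above the highest wild-type value. Its means were 2.95 ± 0.333 CPM in the mutant and 2.15 ± 0.240 CPM in the wild type (SD, n = 3 each), with a log2 fold change of 0.38 (SE 0.16, 95% interval 0.01 to 0.75, limma adjusted p = 0.516). The gene rests on few reads, 31 to 60 per library, for which counting alone gives a coefficient of variation of 14.2%. Without wild-type replicate 2 the log2 fold change was 0.31. *CKX1* overlaps 2 annotated genes on the opposite strand, neither of which is among the genes with values.

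*CKX3*, which acts in meristems of the shoot and the flower, was at 11.9, 10.8 and 13.9 CPM in the mutant and 16.3, 17.0 and 14.7 CPM in the wild type. All mutant values were below all wild-type values, with a gap of 0.794 CPM between the nearest of them. The means were 12.2 ± 1.57 CPM in the mutant and 16.0 ± 1.17 CPM in the wild type (SD, n = 3 each). The log2 fold change was -0.38 (SE 0.12, 95% interval -0.66 to -0.10), a ratio of 0.767 with an interval of 0.633 to 0.930. This was the smallest p of the family, and it did not survive adjustment over all tested genes (limma adjusted p = 0.320). The log2 fold change was -0.34 without wild-type replicate 2 and stayed between -0.48 and -0.30 when each library was left out in turn. *CKX3* overlaps no other annotated gene, and between 188 and 355 reads stand behind each value.

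Among the genes for enzymes that are or are thought to be secreted, *CKX6* had the largest difference of the 3 tested. It was at 16.8, 12.3 and 12.5 CPM in the mutant and 18.03, 21.1 and 15.5 CPM in the wild type. Mutant replicate 1 lay above wild-type replicate 3, so the groups overlapped. The means were 13.9 ± 2.51 CPM in the mutant and 18.2 ± 2.80 CPM in the wild type (SD, n = 3 each), with a log2 fold change of -0.39 (SE 0.15, 95% interval -0.73 to -0.04, limma adjusted p = 0.471). The size of the difference varied with single libraries, as the log2 fold change was -0.28 without wild-type replicate 2 and -0.53 without mutant replicate 1. A long non-coding RNA annotated on the opposite strand of *CKX6*, AT3G63445, averaged 7.24 CPM in the mutant and 7.19 CPM in the wild type.

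*CKX5*, the partner of *CKX3* in limiting meristem size, was at 21.4, 24.1 and 22.9 CPM in the mutant and 27.8, 20.1 and 22.1 CPM in the wild type. The mutant values lay inside the wild-type range. The means were 22.8 ± 1.38 CPM in the mutant and 23.4 ± 3.99 CPM in the wild type (SD, n = 3 each), and the log2 fold change was -0.02 (SE 0.13, 95% interval -0.31 to 0.26, limma adjusted p = 0.983). The log2 fold change of this gene with 4 upstream G-boxes turned with single libraries, to 0.11 when wild-type replicate 1 was left out and -0.12 when wild-type replicate 2 was. Of the 3 annotated genes that overlap *CKX5*, 1 on the same strand, the table lists values for AT1G75440 only, which averaged 10.2 CPM in the mutant and 10.6 CPM in the wild type.

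*CKX2*, which encodes a secreted enzyme, was at 11.4, 14.3 and 14.1 CPM in the mutant and 13.5, 12.1 and 8.61 CPM in the wild type. The groups overlapped, and wild-type replicate 3 was the lowest of all. The means were 13.3 ± 1.62 CPM in the mutant and 11.4 ± 2.51 CPM in the wild type (SD, n = 3 each), with a log2 fold change of 0.23 (SE 0.17, 95% interval -0.16 to 0.61, limma adjusted p = 0.771). Most of this difference rested on wild-type replicate 3, without which the log2 fold change was 0.05, while it was 0.28 without wild-type replicate 2. *CKX2* overlaps AT2G19490 on the opposite strand, which averaged 8.81 CPM in the mutant and 9.07 CPM in the wild type.

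*CKX4* was close to the limit of detection. It was at 0.458, 0.115 and 0.453 CPM in the mutant and 0.322, 1.42 and 0.592 CPM in the wild type, or about 10, 2 and 9 reads in the mutant and 7, 23 and 11 reads in the wild type. Mutant replicate 2 was below the 3-read limit of its library, and wild-type replicate 2 stood apart at the top. The groups overlapped, since wild-type replicate 1 lay below 2 of the mutant libraries. When all genes were tested without a filter, the log2 fold change of *CKX4* was -0.54 (95% interval -1.29 to 0.21, limma adjusted p = 0.689). The coefficient of variation among replicates was 57.5% in the mutant and 73.5% in the wild type, against 31.1% from counting reads alone, and with this spread and depth no difference was detectable.

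**Figure D3:**
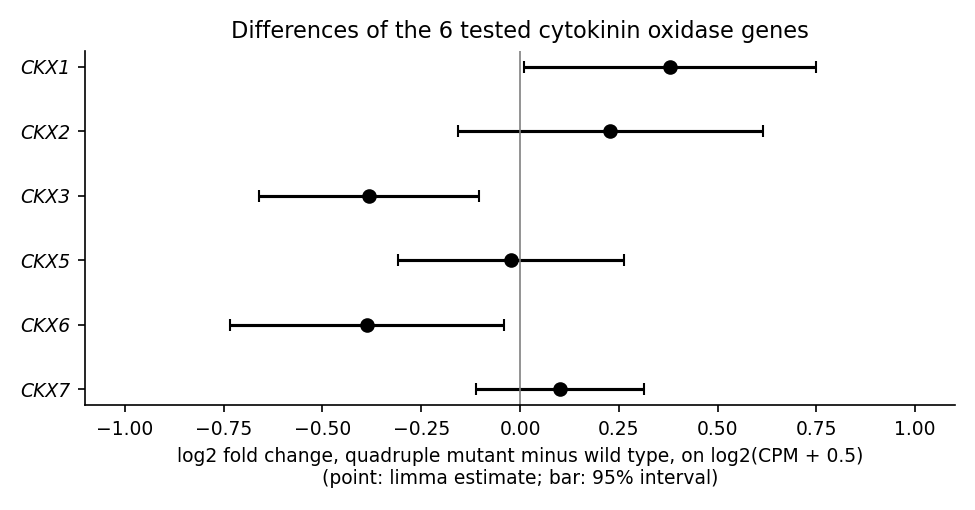
Log2 fold change of each tested cytokinin oxidase gene, quadruple mutant minus wild type on log2(CPM + 0.5), with points for the limma estimate and bars for the 95% interval before adjustment for the number of genes. The intervals of *CKX1*, *CKX3* and *CKX6* do not reach 0, while those of *CKX2*, *CKX5* and *CKX7* span it, and no adjusted p is under 0.05. Without wild-type replicate 2, only *CKX3* kept an unadjusted p under 0.05.

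To compare levels between the genes, CPM were divided by the length of the transcript in kb. Averaged over the 6 libraries, *CKX7* had the highest level, 14.0 CPM per kb, followed by *CKX5* with 8.51, *CKX3* with 8.17, *CKX6* with 7.99, *CKX2* with 7.40, *CKX1* with 1.14 and *CKX4* with 0.281 CPM per kb. *CKX7* was above *CKX5*, *CKX2* above *CKX1* and *CKX1* above *CKX4* in 6 of 6 libraries, with no overlap of their ranges. The 4 genes between *CKX7* and *CKX1* had overlapping ranges, and each was above the next in 4 of 6 libraries. Their order differed between the genotypes. In the mutant the means were 8.41 CPM per kb for *CKX5*, 7.97 for *CKX2*, 7.07 for *CKX3* and 6.91 for *CKX6*. In the wild type they were 9.28 CPM per kb for *CKX3*, 9.08 for *CKX6*, 8.62 for *CKX5* and 6.83 for *CKX2*. *CKX5* was above *CKX3* in 3 of 3 mutant libraries and in 1 of 3 wild-type libraries, a difference that was not tested. With coding length in place of transcript length, *CKX5* was above *CKX3* in 6 of 6 libraries and *CKX3* above *CKX6* in only 1 of 6, while *CKX7* kept the top place, with 18.4 CPM per kb of coding sequence against 14.2 for *CKX5*. In raw CPM, the mean of *CKX7* stood at percentile 62.2 of all genes with values and that of *CKX4* at percentile 3.69.

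**Figure D4:**
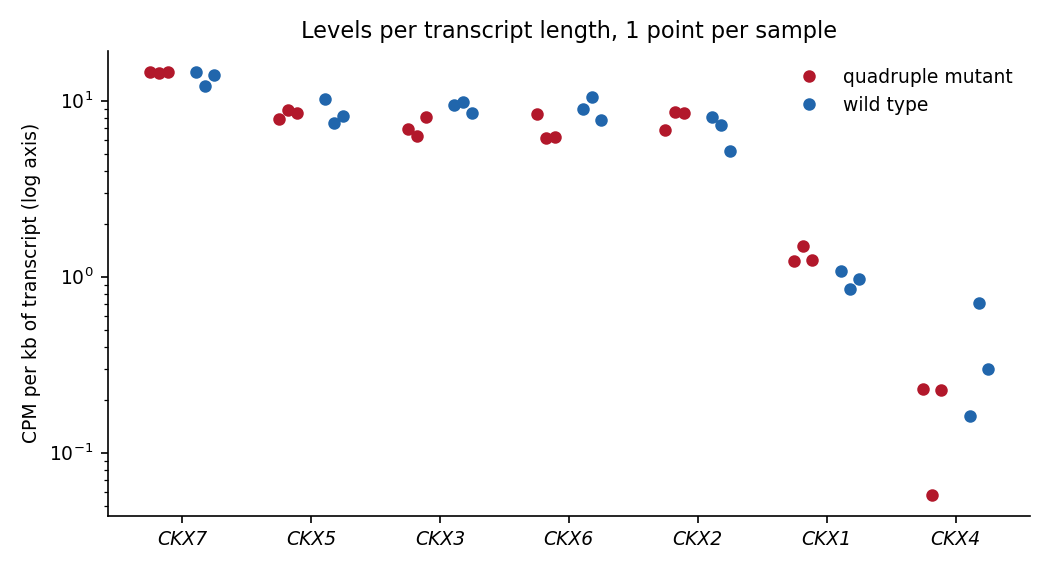
CPM per kb of transcript for each cytokinin oxidase gene on a log axis, with 1 point per library, quadruple mutant in red left of wild type in blue. *CKX7* is at the top, *CKX5*, *CKX3*, *CKX6* and *CKX2* share a range, and *CKX1* and *CKX4* lie below them in every library.

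The summed level of the 7 members was 94.5, 94.8 and 96.7 CPM in the mutant and 108, 98.7 and 92.4 CPM in the wild type. The mutant sums lay inside the wild-type range, with means of 95.3 ± 1.21 CPM in the mutant and 99.8 ± 8.03 CPM in the wild type (SD, n = 3 each). Within the summed CPM per kb, *CKX7* made up 31.3% ± 0.377 in the mutant and 27.9% ± 3.07 in the wild type (SD, n = 3 each), and these shares overlapped. The share of *CKX3* was 13.7% to 17.1% in the mutant and 18.02% to 20.2% in the wild type, and that of *CKX1* was 2.62% to 3.25% in the mutant and 1.75% to 2.15% in the wild type. These are the members whose CPM did not overlap either, and shares of a sum are not independent of each other.

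The other genes of the cytokinin pathway gave no called difference either. Of 69 listed genes of synthesis, activation, conjugation, transport and signalling, 55 had values and 54 were tested, and limma called 0 of them, with 4 at an unadjusted p under 0.05 (9.31% of all tested genes). The groups did not overlap for 2 genes with higher values in the mutant (6.92% of all tested genes) and 5 with lower ones (7.41% of all tested genes). All of these counts were near the shares over all genes, and the list had a median of -0.01 in log2 fold change. Among the enzymes that act before the oxidases, the 5 tested isopentenyltransferases had a median of 0.12, the value of *IPT9*. The 6 tested LOG enzymes, which release the active base, had a median of -0.03. *LOG1* was at 42.5, 43.8 and 44.8 CPM in the mutant and 47.0, 55.5 and 58.0 CPM in the wild type, with a log2 fold change of -0.28 (limma adjusted p = 0.354). The glucosyltransferases, listed for conjugation of cytokinins, had a median of 0.09 over 5 tested genes, without a gene whose groups were apart.

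On the signalling side, the type-A response regulators, which cytokinin induces and which dampen its signal, had a median of -0.10 over 8 tested genes. *ARR5*, a commonly used reporter of cytokinin response, was at 6.37, 4.31 and 10.02 CPM in the mutant and 10.2, 11.8 and 11.3 CPM in the wild type. The groups did not overlap, but the nearest values almost met, and the difference, -0.72 in log2 units (SE 0.24, adjusted p = 0.354 by limma), was not called. The other 5 genes that the naming rule picked were the receptor gene *AHK2* (-0.16), the phosphotransfer gene *AHP4* (0.66), the type-B response regulator *ARR18* (-0.26) and the response factor genes *CRF1* (0.28) and *CRF3* (-0.48), in log2 fold change. *AHP4* passed the filter only through the mutant libraries, so its lack of overlap was set by the filter in part. It was at 0.779, 0.805 and 0.755 CPM in the mutant and 0.414, 0.123 and 0.431 CPM in the wild type. *CRF3* was at 3.12, 3.16 and 3.07 CPM in the mutant and 4.74, 5.30 and 3.77 CPM in the wild type, and its adjusted p of 0.333 (limma) was the smallest of the pathway.

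**Figure D5:**
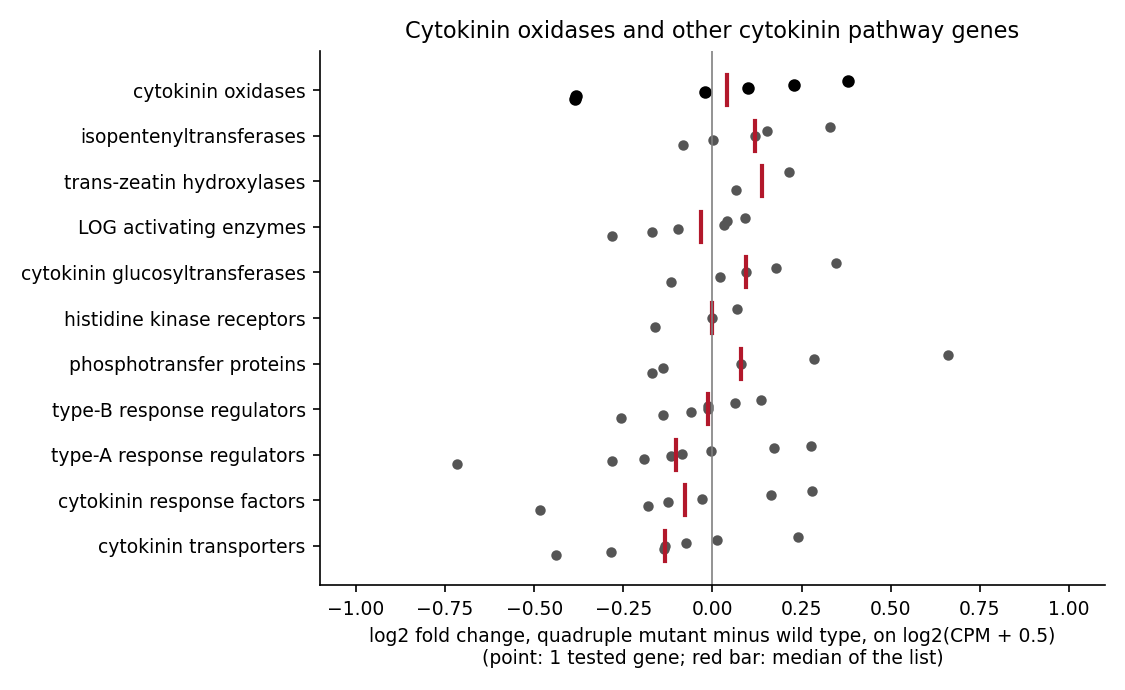
Log2 fold change, quadruple mutant minus wild type on log2(CPM + 0.5), of the 6 tested cytokinin oxidase genes (top row) and of 54 other cytokinin pathway genes by list, with 1 point per gene and a red bar at the median of each list. Points lie on both sides of 0 in most lists, between -0.72 for *ARR5* and 0.66 for *AHP4*, and none was called.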

How the data were processed

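RNA from 6 inflorescence samples, 3 per genotype, was made into libraries with a directional kit. The authors mapped reads to TAIR10 with Bowtie2, estimated expression with RSEM and tested genotypes with edgeR (versions not given in the sources used here). The sample titles, followed here, name the allele *ces-4* and the extraction notes *ces-2*. RSEM divides reads shared by similar transcripts, and whether strand was used is not given. The authors deposited CPM per gene and sample, scaled to an effective library size. The deposited log2 fold change and p-value columns of the authors' own comparison, with the FDR (3 columns in all), were not used.

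From the CPM, log2(CPM + 0.5) was tested with limma 3.58.1 in R 4.3.3 (moderated by eBayes with trend, on all 6 samples and genotype alone) for 21287 genes above 0.5 CPM in at least 3 samples, with Benjamini-Hochberg adjustment over all of them. Fold changes on this scale understate those of low genes. Of the low values, 93.8% to 95.3% were whole reads within 0.1 read. A test for counts on reads recovered from the CPM was not run. The smallest two-sided p of an exact permutation test would be 0.1 here, and none was run. The fit was also run on simulated data, with the same dispersion for every gene and changes larger than those of the members. That run does not bear on differences as small as theirs. In the table, 2 rows had no name or values and were left out.

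Identifiers, positions and upstream sequences came from the TAIR10.1 annotation, in which all 7 members were found. Lengths are those of the model with the longest coding sequence. Motifs were searched with Python 3.11.15 and pysam 0.24.0, and proteins were aligned with Biopython 1.88. The genes named are the 7 members, the mutated genes, pathway genes that were called or were among the 3 largest changes of their list without overlap between genotypes, and the 3 genes most like *CKX7* in profile. *AP1*, *SEP3*, *INO* and *WUS* were named after their values were seen. The members and lists were chosen with earlier results of these data known. Alternatives were other scalings, filters and pseudocounts, a fit without the trend, a replicate block and leaving out each library.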

Additional observations from a re-analysis of the deposited data

How the results depend on the processing

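None of the 6 tested cytokinin oxidase genes and none of the pathway genes was called under any of the 14 alternatives, and all 4 mutated genes were called lower under each. The smallest adjusted p of a member was 0.216, for *CKX3* without mutant replicate 3. The sign of the log2 fold change held throughout for 5 members, while that of *CKX5* (-0.02) ran between -0.12 and 0.11 when a library was left out, with 0.02 without mutant replicate 1 and 0.11 without wild-type replicate 1. Over all genes, 148 calls became 61 to 159 when a library was left out, with 61 without wild-type replicate 1, 73 without mutant replicate 1, 76 without mutant replicate 2 and 83 without wild-type replicate 3. A fit that added a replicate block gave 64 calls. Deviations of same-numbered samples correlated at -0.11, -0.16 and -0.10. These values gave no sign of pairing by number, but with 3 samples per genotype they are too few to settle it. The mean summed level of the family was 47.5 CPM per kb of transcript, 46.5 to 48.1 with a library left out, and 61.4 CPM per kb of coding length. Few reads stand behind *CKX4* and *CKX1*, and with 3 samples per genotype the median SE of a log2 fold change was 0.13.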
